A study of Arabidopsis thaliana with 9 samples.

Results

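LEA4-5 (AT5G06760), TIL (AT5G58070), DI21 (AT4G15910) and HIS1-3 (AT2G18050) are 4 Arabidopsis thaliana genes that are known for their link to desiccation. They were 4 of the 13356 genes to which the probe annotation gave a probe set of their own, and each had 1 such probe set. The 4 genes were chosen by their measured difference between Col-0 seedlings at 4 °C and at 22 °C, in which 3 of them were called higher and 1 lower. A probe set was called at a limma adjusted p under 0.05 and an absolute log2 difference of at least 1. Over all 22746 probe sets tested, 5.87% were called higher in that comparison and 6.09% lower. Since the choice fixes what the 4 genes do in it, their cold values are given as a description, without a test.

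The study set the accessions Col-0 and WS side by side in the search for cold signatures that both share. Wild-type seedlings had been grown whole on Gamborg's medium without sucrose (0.7% agar) under continuous light of 60 to 80 microE at 22 °C. After 3 days of stratification and 10 days of growth they spent 24 h either in another chamber at 22 °C, as the mock treatment, or at 4 °C. Total RNA of shoots and roots together was hybridised to Affymetrix arrays, with 2 arrays for mock-treated Col-0, 5 for cold-treated Col-0 and 2 for cold-treated WS, an accession that 1 label field writes as WS2. Of the cold Col-0 arrays, 2 are named set 4 in their titles. No WS array at 22 °C was analysed here, so a cold response within WS could not be measured. No label tells whether replicate arrays stem from separately grown plants, and p-values therefore measure the spread between these samples only.

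Late embryogenesis abundant (LEA) proteins are very hydrophilic, mostly disordered proteins that build up in drying seeds and in tissue short of water, where they are thought to protect enzymes and membranes. Freezing also draws water from plant cells, and many genes of the drought response answer to low temperature as well. LEA4-5 belongs to a small group of LEA proteins that shields enzymes from loss of activity in the test tube, and DI21 to another LEA group, named LEA_3 in protein family databases. TIL, the temperature-induced lipocalin, is a small barrel-shaped protein at the plasma membrane, and plants without it are sensitive to heat, freezing and oxidative stress. HIS1-3 is the stress-inducible variant of linker histone H1, which binds the DNA between nucleosomes.

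Values are log2 signals as the authors deposited them. Array medians lay between 5.81 and 5.88, except 6.06 on array 3 of cold Col-0. Across probe sets, arrays of cold Col-0 correlated with one another at 0.979 to 0.993, and the pair at 22 °C at 0.984. Only 2 of the 5 root markers and 2 of the 6 shoot markers looked for had a listed probe set. The root markers PYK10 and EXPA7 had signals of 11.20 to 12.21 and 4.69 to 6.35 over the 9 arrays. The shoot markers LHCB4.1 and LHCB4.2 had 12.30 to 12.99 and 9.34 to 12.93. The shoot markers encode light-harvesting antenna proteins, and both were lower on every cold array than on either array at 22 °C (log2 differences in Col-0 of -0.52 and -1.86, of which LHCB4.2 was called). For the root markers the cold log2 differences in Col-0 ran from -0.37 to 0.17, and neither was called. The part of a change in tissue make-up in the values below was not tested. In whole seedlings, fewer cells of a type and less RNA per cell cannot be told apart. None of the 6 seed markers had a listed probe set, so seed material was not analysed here.

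LEA4-5 had signals of 3.95 and 5.54 on the 2 arrays of Col-0 at 22 °C. On the cold Col-0 arrays 1 to 3 it had 9.71, 9.19 and 9.97, and on the 2 arrays of set 4 it had 8.0 and 8.65. The WS arrays at 4 °C gave 10.44 and 9.65. All 7 cold arrays thus lay above both arrays at 22 °C, and the groups of Col-0 did not overlap. The share of all probe sets with such a separation was not counted. Here and for every other gene, a separation of cold from 22 °C arrays is therefore not read as a trait of the gene. The means were 4.74 ± 1.12 (SD, n = 2) at 22 °C, 9.10 ± 0.80 (SD, n = 5) in cold Col-0 and 10.05 ± 0.56 (SD, n = 2) in cold WS. This is the highest cold difference among the 4 genes, with a log2 difference of 4.36 (SE 0.57), or 20.5-fold, in Col-0, and it ranked as number 15 of all probe sets from the top. The size depended on which array stood for 22 °C, since cold Col-0 lay 35.6-fold above array 1 and 11.8-fold above array 2. At 22 °C the signal of LEA4-5 exceeded that of 26.9% and 45.8% of probe sets on the same array, and in cold Col-0 that of 79.8% to 94.5%. Brightness differs between probe sets for reasons other than transcript number, so these shares only place the signal on the scale of the array.

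TIL had 10.05 and 9.97 at 22 °C. In cold Col-0 the signals were 12.03, 11.96 and 12.03 on arrays 1 to 3 and 11.50 and 11.91 in set 4, and in cold WS they were 12.14 and 12.12. The groups of TIL were the tightest of the 4 genes at 22 °C, and no cold array came within 1 log2 unit of a 22 °C array. Means of 10.01 ± 0.06 (SD, n = 2), 11.89 ± 0.22 (SD, n = 5) and 12.13 ± 0.02 (SD, n = 2) gave a cold difference in Col-0 of 1.87 on the log2 scale (SE 0.15), or 3.67-fold. Against array 1 or array 2 at 22 °C alone it was 3.56-fold or 3.78-fold. TIL was thus the member whose size depended least on the choice of 22 °C array.

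DI21 had 8.64 and 9.36 at 22 °C, and 10.57, 10.14 and 10.68 on cold Col-0 arrays 1 to 3. Set 4 gave 10.07 and 10.52, and cold WS gave 10.20 and 10.09. Every cold array lay above both 22 °C arrays, and the WS arrays lay among the lower of the cold Col-0 arrays. From 9.0 ± 0.51 (SD, n = 2) to 10.40 ± 0.27 (SD, n = 5), the cold difference in Col-0 was 1.40 on the log2 scale (SE 0.22), or 2.64-fold. It was 3.39-fold against array 1 at 22 °C and 2.05-fold against array 2. In cold WS the mean was 10.15 ± 0.08 (SD, n = 2).

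HIS1-3 had 3.76 and 5.39 at 22 °C, and the 2 values lay further apart than all 7 cold arrays together. The cold Col-0 signals were 3.24, 3.36 and 3.74 on arrays 1 to 3 and 3.58 and 3.42 in set 4, and the WS signals were 3.59 and 3.58. Array 1 at 22 °C stood only just above the highest cold array, so the groups did not overlap by a narrow margin. The means were 4.58 ± 1.16 (SD, n = 2), 3.47 ± 0.19 (SD, n = 5) and 3.59 ± 0.01 (SD, n = 2), with a cold log2 difference in Col-0 of -1.11 (SE 0.35). Against array 2 at 22 °C cold Col-0 was 3.80-fold lower, and against array 1 it was 1.22-fold lower. The cold signals exceeded those of only 7.31% to 20.8% of probe sets on their arrays. Detection calls were not used here, so whether a transcript was present at such dim signals was not measured. HIS1-3 lay just inside the minimum log2 difference that chose the genes, and the H1 gene AT1G06760, described below, just outside it at -0.90.

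**Figure D1:**
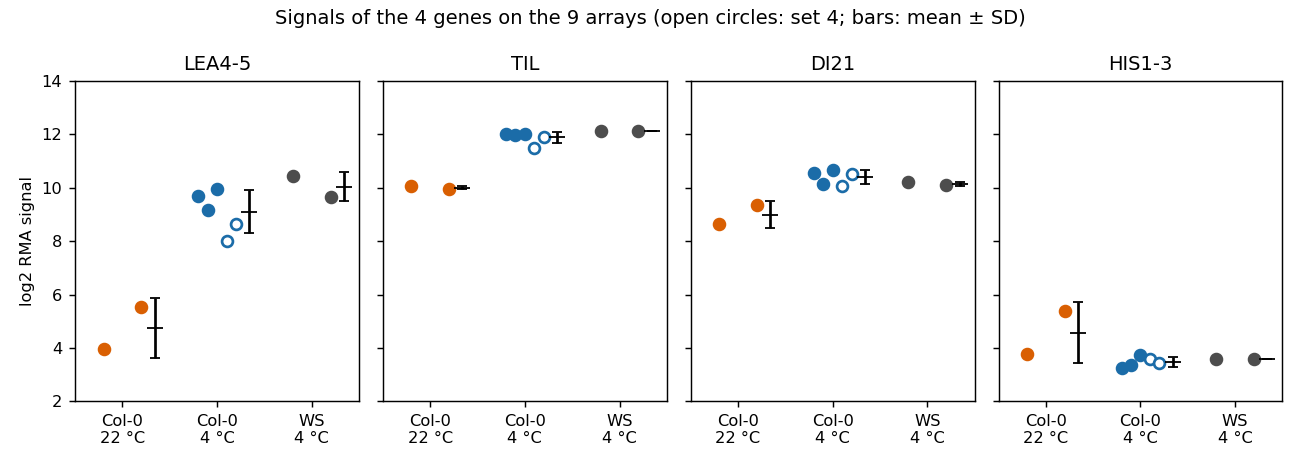
Log2 signals of LEA4-5, TIL, DI21 and HIS1-3 on each of the 9 arrays, by group, with the mean and SD of each group beside the points and the 2 set 4 arrays as open circles. The 7 cold arrays lie above both 22 °C arrays for LEA4-5, TIL and DI21, while for HIS1-3 array 2 at 22 °C (5.39) stands alone above the other 8.

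The arrays at 22 °C differed for 3 of the 4 genes, and in the same direction. Array 2 was higher than array 1 by 1.59 for LEA4-5, by 1.63 for HIS1-3 and by 0.72 for DI21 on the log2 scale, and lower by 0.08 for TIL. Differences of at least 1 in either direction between these arrays were seen for 2.58% of all probe sets. Only 0.576% of probe sets had a larger absolute difference between this pair than LEA4-5, 0.523% a larger one than HIS1-3, 6.52% a larger one than DI21 and 77.1% a larger one than TIL. Array 2 was higher for 10747 of the 22746 probe sets, so it was not brighter as a whole in the deposited values. The RMA processing behind these values sets the probe signals of all arrays to one distribution before they are combined into probe sets. The count therefore cannot tell of brightness before that step.

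**Figure D2:**
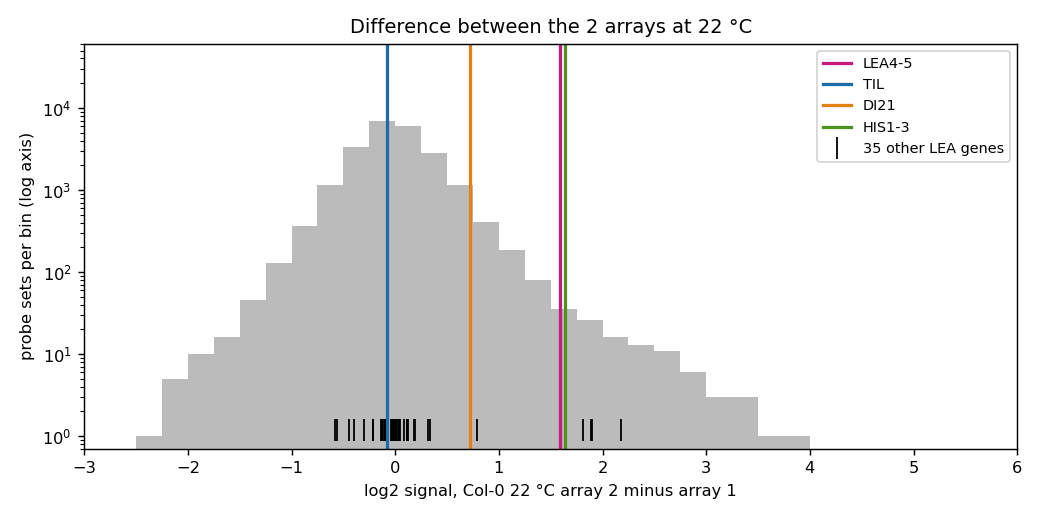
Distribution over all 22746 probe sets of the log2 signal on Col-0 22 °C array 2 minus array 1 (log count axis), with vertical lines at the 4 genes and ticks for the 35 other LEA genes. LEA4-5 (1.59) and HIS1-3 (1.63) lie far out on the right, DI21 (0.72) less far, and TIL near 0.

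Between the accessions in the cold, none of the 4 genes was called, against 2.14% of all probe sets. The cold difference in Col-0 that chose the genes does not use the WS arrays, but this comparison shares the cold Col-0 arrays with it, and earlier results of the WS arrays were known when the genes were chosen. For LEA4-5, cold WS lay above cold Col-0 by 0.94 on the log2 scale (SE 0.57; 95% interval -0.33 to 2.22), with an adjusted p of 0.423 by limma. The interval covers no difference as well as a signal in WS more than 2-fold higher. For TIL the difference was 0.24 (SE 0.15, limma adjusted p = 0.438, 95% interval -0.095 to 0.58). Both WS arrays lay above all 5 cold Col-0 arrays for TIL, as they did for 12.1% of all probe sets. DI21 had -0.25 (SE 0.22, limma adjusted p = 0.621; 95% interval -0.76 to 0.25). HIS1-3 had 0.12 (SE 0.35, limma adjusted p = 0.913; 95% interval -0.66 to 0.90). A 2-fold difference in signal between the accessions lies outside the intervals of TIL and DI21 but inside that of LEA4-5. These and the later differences between WS and Col-0 describe signals, since whether the probes bind transcripts of both accessions alike was not tested. HIS1-3 was also dim in both groups, so its interval sets no limit on a difference in transcript. The difference of LEA4-5 was 0.42 with the set 4 arrays left out. The shoot markers LHCB4.1 and LHCB4.2 had differences of -0.14 and -0.94 between cold WS and cold Col-0 and the root markers PYK10 and EXPA7 of 0.19 and -0.17, none called, and their part in the values of the 4 genes was not tested.

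Within cold Col-0, both set 4 arrays lay below the other 3 arrays for LEA4-5 and for TIL, while the arrays overlapped for DI21 and HIS1-3. The share of all probe sets with such a separation was not counted, so it is not read as a trait of these genes. LEA4-5 was lower in set 4 by a log2 difference of -1.30 (SE 0.46; 95% interval -2.35 to -0.25), with an unadjusted p of 0.0212 and an adjusted p of 0.405 by limma. It was number 27 of all probe sets from the low end in this comparison. TIL had -0.30 (SE 0.14, limma adjusted p = 0.482), DI21 -0.17 (SE 0.25, adjusted p = 0.865) and HIS1-3 0.05 (SE 0.39, adjusted p = 0.980). None of the 4 was called, and neither were nearly all other probe sets: 0.0044% were called, a single one, while 2401 had an unadjusted p under 0.05. Without array 1 of set 4, the difference for TIL was -0.099. The root markers PYK10 and EXPA7 lay higher in set 4 by 0.25 and 0.74, and the shoot markers LHCB4.1 and LHCB4.2 differed by -0.15 and 0.015, none called. Their part in the set 4 values was not tested.

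Against Col-0 at 22 °C, cold WS showed the same order of the 4 genes as cold Col-0. The comparison shares its 22 °C arrays with the one that chose the genes, and accession and temperature differ together in it, so it is a description. LEA4-5 was 39.5-fold higher, TIL 4.34-fold higher and DI21 2.22-fold higher, and HIS1-3 was 1.99-fold lower. On the log2 scale these differences were 5.30 (SE 0.68), 2.12 (SE 0.18), 1.15 (SE 0.27) and -0.99 (SE 0.41). For LEA4-5 the log2 difference was 4.51 without array 1 at 22 °C and 6.10 without array 2. In the order of the group means, 22 °C lay lowest for LEA4-5, TIL and DI21 and highest for HIS1-3. The 2 cold groups, neighbours in that order for every gene, were not told apart by the test above.

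**Figure D3:**
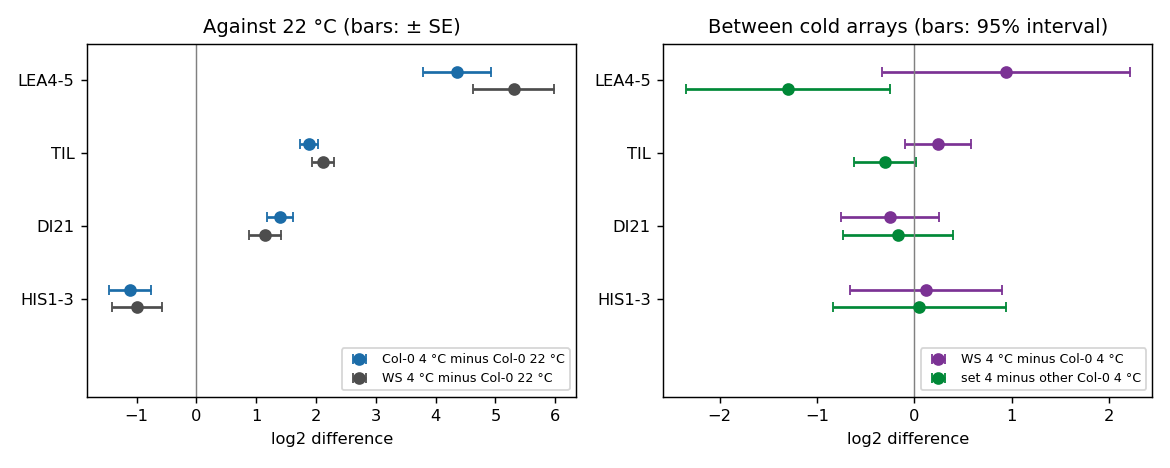
Log2 differences of the 4 genes, on the left for both cold groups against Col-0 at 22 °C with SE bars, on the right for cold WS against cold Col-0 and for set 4 against the other cold Col-0 arrays with 95% intervals. LEA4-5 reaches 4.36 and 5.30 on the left, and on the right the interval for set 4 and LEA4-5 (-2.35 to -0.25) lies below 0 before adjustment over all probe sets.

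Each of the 4 genes has relatives on the array, which were measured in the same samples. LEA4-5 forms a group with AtLEA4-1 (AT1G32560) and LEA18 (AT2G35300), which are LEA proteins of the same family. AtLEA4-1 had 3.78 and 3.22 at 22 °C, 3.09 to 3.52 in cold Col-0 and 3.46 and 3.51 in cold WS. LEA18 had 3.49 and 3.28 at 22 °C, 3.11 to 3.51 in cold Col-0 and 3.97 and 3.40 in cold WS. Neither was called: the cold log2 differences in Col-0 were -0.19 (SE 0.18, limma adjusted p = 0.517) and -0.040 (SE 0.17, limma adjusted p = 0.901). Both were dim on all 9 arrays, and the 3 groups overlapped. Whether LEA4-5 differs from them in its response was not tested.

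The other lipocalin with a listed probe set, CHL (AT3G47860), encodes the chloroplast protein. It had 10.44 and 10.46 at 22 °C, 9.97 to 10.18 in cold Col-0 and 10.34 and 10.17 in cold WS. CHL signals were a little lower in the cold (log2 -0.32, SE 0.10), with a limma adjusted p of 0.0501, and not called. The xanthophyll cycle enzymes of the lipocalin fold, also on the list of 3 relatives, had no listed probe set of their own. For DI21, the measured relative of the same LEA group was AT3G53770, with 3.22 on both 22 °C arrays, 3.03 to 3.39 in cold Col-0 and 3.48 and 3.54 in cold WS. Its cold log2 difference was 0.032 (SE 0.11, limma adjusted p = 0.881).

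Of the main H1 genes, AT1G06760 had 10.04 and 10.15 at 22 °C, 9.15 to 9.26 in cold Col-0 and 9.15 and 9.31 in cold WS. Its arrays did not overlap between 22 °C and the cold, and its spread was small. The cold log2 difference in Col-0 was -0.90 (SE 0.098, limma adjusted p = 0.000165), past the p threshold but short of the minimum difference, so it was not called. AT2G30620 had 10.45 and 10.66 at 22 °C, 10.27 to 10.54 in cold Col-0 and 10.36 and 10.39 in cold WS, with a cold log2 difference of -0.12 (SE 0.11, limma adjusted p = 0.507). Of the 3 H1 genes, HIS1-3 was thus the one with the widest spread between the arrays at 22 °C. Between the accessions in the cold, AT1G06760 had a log2 difference of 0.034 and AT2G30620 of -0.059, neither called.

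**Figure D4:**
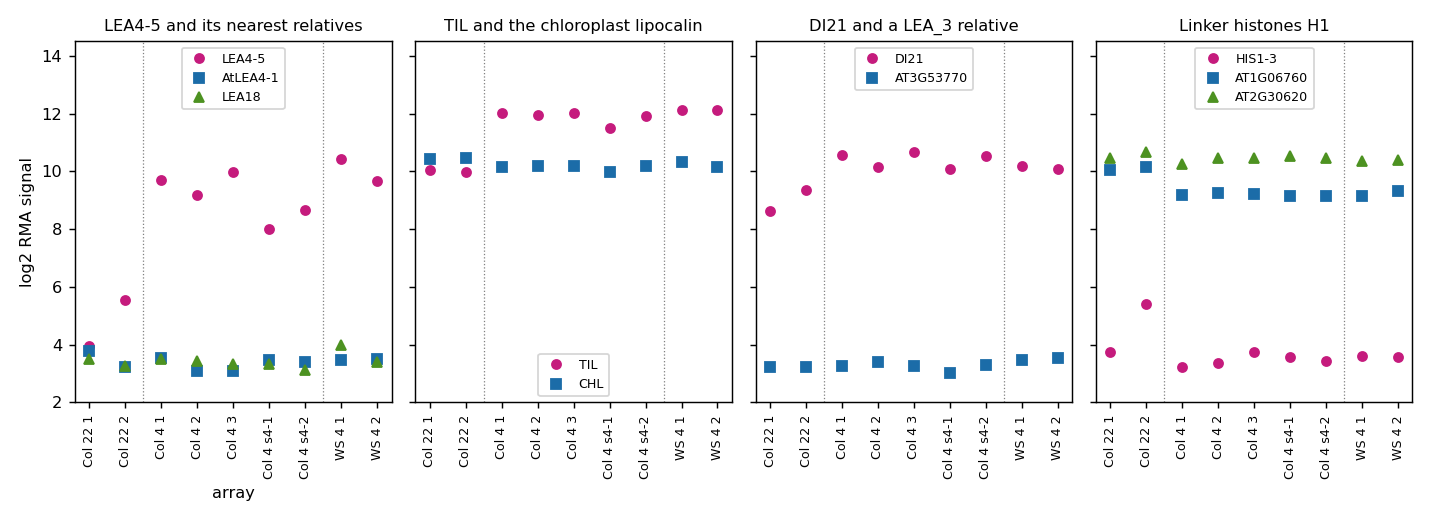
Log2 signals on each of the 9 arrays for LEA4-5, TIL, DI21 and HIS1-3 and their measured relatives, with dotted lines between the groups Col-0 at 22 °C, Col-0 at 4 °C (s4 marks set 4) and WS at 4 °C. AtLEA4-1, LEA18 and AT3G53770 stay below 4 on all arrays, and AT1G06760 steps down from above 10 at 22 °C to at most 9.31 in the cold; heights are not compared between probe sets.

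Among 35 further LEA genes, of 51 listed, 5 were called higher in cold Col-0 and none lower, that is 14.3% beside 5.87% of all probe sets called higher. The median cold log2 difference of the 35 was 0.19, beside 0.027 over all probe sets. The 5 that rose were the chloroplast stroma proteins COR15A (66.6-fold) and COR15B (43.6-fold), the dehydrins LTI30 (23.0-fold) and COR47 (7.92-fold), and AT2G23120 (3.94-fold; limma adjusted p = 1.24e-05). AT2G23120 had 10.06 and 9.94 at 22 °C, 11.85 to 12.20 in cold Col-0 and 12.27 and 12.35 in cold WS, so that its groups stood apart as those of TIL did. The 3 of the 5 with the largest folds also lay higher on array 2 than on array 1 at 22 °C. The log2 differences were 1.90, 1.81 and 2.18 for COR15A, COR15B and LTI30, while AT2G23120 lay 0.12 lower. Array 2 was the higher one for 4 of the 5, COR47 included, but for only 18 of the 35. With array 1 at 22 °C left out COR15A was 34.5-fold higher, COR15B 23.3-fold and LTI30 10.8-fold, and with array 2 left out 129-fold, 81.6-fold and 49.0-fold.

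The other 30 LEA genes were not called in the cold. Of the 35, 24 stayed below a log2 signal of 5 on all 9 arrays, and their cold differences ran from -0.19 to 0.43. The largest uncalled differences belonged to AT3G02480 (0.84, limma adjusted p = 0.330), AT2G46140 (-0.65, limma adjusted p = 0.0418) and AT2G44060 (-0.48, limma adjusted p = 0.0153), the latter pair past the p threshold but under the minimum difference. Bright LEA genes were not all called in the cold. AT1G54410, a small dehydrin gene picked after its values were seen, had 12.29 and 12.30 at 22 °C and 11.96 to 12.90 in cold Col-0 (log2 0.30, limma adjusted p = 0.414). With its cold arrays so far apart, a change in this gene is not excluded.

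**Figure D5:**
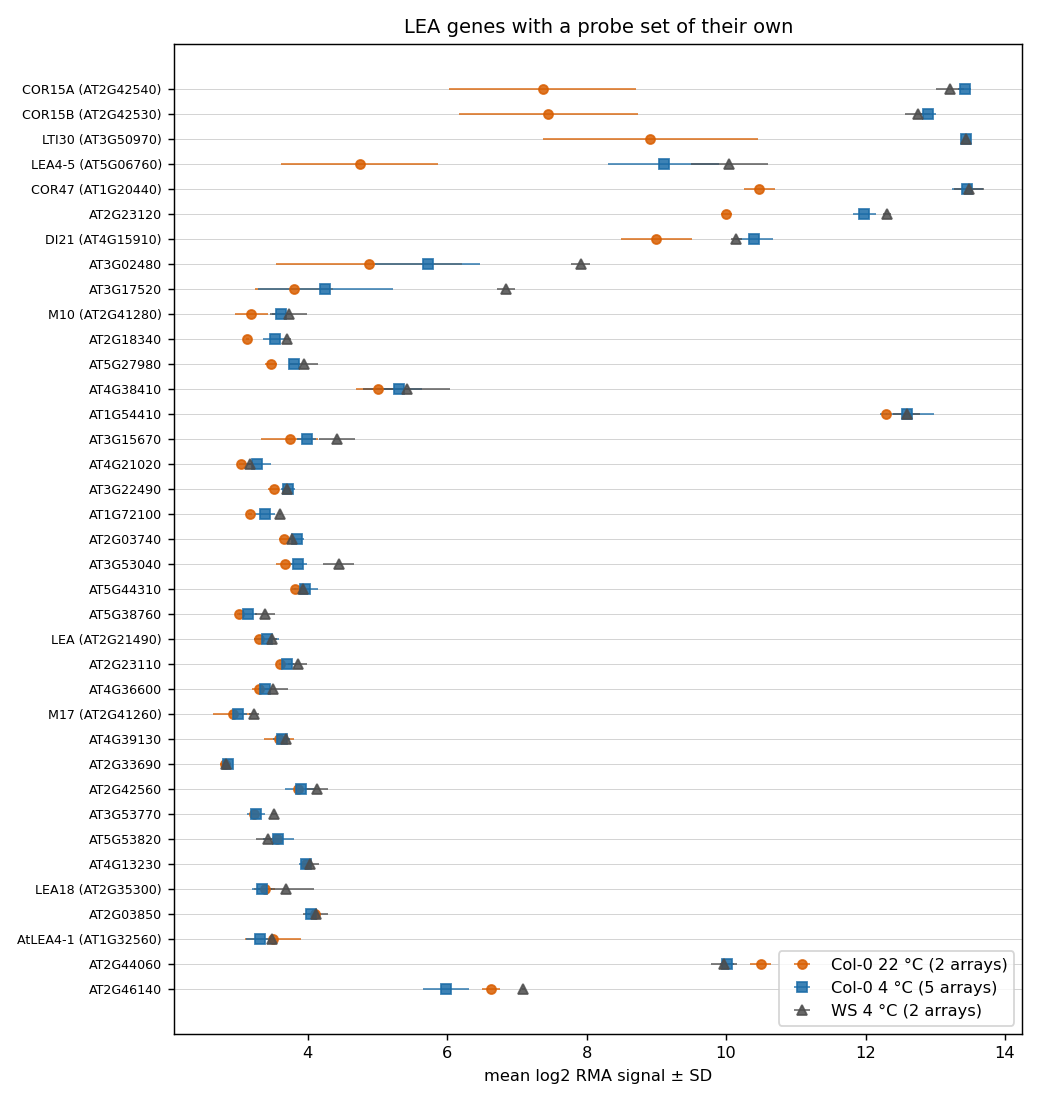
Mean log2 signal ± SD of LEA4-5, DI21 and the 35 other LEA genes in the 3 groups, ordered by the cold difference in Col-0 with the highest at the top. Cold Col-0 and cold WS both lie to the right of 22 °C for the top genes. AT3G17520, AT3G02480 and AT2G46140 have their highest means in cold WS, and so does LEA4-5 (10.05, beside 9.10 in cold Col-0). Positions along the axis are not compared between genes.

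Cold WS differed from cold Col-0 for 2 of the 35 LEA genes, both higher in WS (5.71%, beside 2.14% of all probe sets called in either direction). AT3G17520 had 6.94 and 6.76 in WS, against 3.94, 3.57, 5.96, 3.86 and 3.90 in cold Col-0, where array 3 stood apart. It lay 2.60 log2 units higher in WS (SE 0.56, limma adjusted p = 0.0331), a result that was not called without either WS array (adjusted p = 0.159 and 0.170), without array 1 (0.0731) or 2 (0.0691) of cold Col-0, without array 1 of set 4 (0.0704), or without set 4 altogether (0.0853). The fold stayed between 5.11 and 6.44 in those fits, beside 6.06 with all arrays. AT2G46140 had 7.10 and 7.08 in WS and 5.60 to 6.37 in cold Col-0, so that WS was higher by 1.10 on the log2 scale (SE 0.20; limma adjusted p = 0.0177), a call also lost without either WS array (0.100 and 0.123), at folds of 2.13 and 2.17 beside 2.15. AT3G02480 had 8.01 and 7.82 in WS and 4.97 to 6.98 in cold Col-0, and its log2 difference of 2.19 (SE 0.56) was not called, with an adjusted p of 0.0616 by limma. Neither were AT3G53040 (log2 0.58, adjusted p = 0.0418, under the minimum difference) and AT3G15670 (log2 0.43, adjusted p = 0.219). The result for AT3G02480 depended on the fit. It was called under both other scalings (limma adjusted p = 0.0298 and 0.0416) but not with set 4 left out (0.122). The median over the 35 genes was 0.11, beside 0.0089 over all probe sets. Both WS arrays lay above all cold Col-0 arrays for 8 of the 35 genes, beside 12.1% of all probe sets. LEA4-5 and DI21 had WS arrays that overlapped with those of cold Col-0.

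Of 53 genes listed for the response to drought and abscisic acid, the hormone that signals lack of water, the probe annotation gave only 4 a probe set of their own. It names no gene for 8730 probe sets, among which the missing genes may be, so the annotation decided which were measured. In cold Col-0, 2 of the 4 rose and 1 fell, beside 5.87% and 6.09% of all probe sets. A share of so few genes cannot be read closely. AT4G30650 rose 5.73-fold (limma adjusted p = 0.00105), from 8.97 and 10.87 at 22 °C to 12.31 to 12.53. Its rise was 2.97-fold without array 1 at 22 °C and 11.1-fold without array 2. SAG29, a sugar transporter gene of the SWEET family, rose 6.27-fold (limma adjusted p = 0.0149), a call lost without array 1 at 22 °C (adjusted p = 0.152). DI19, the drought-induced gene of a zinc finger protein, fell from 11.69 and 12.27 to 10.17 to 10.65 (log2 -1.57, SE 0.25, limma adjusted p = 0.00137), so it moved against DI21, whose name has the same origin. AT4G30660, a relative of AT4G30650, had a cold log2 difference of 0.20 (limma adjusted p = 0.663). None of the 4 was called between the accessions in the cold, beside 2.14% of all probe sets, with log2 differences from -0.14 to 0.30. Array 2 at 22 °C lay above array 1 for all 4, by 1.90 for AT4G30650, 1.22 for AT4G30660, 1.10 for SAG29 and 0.59 for DI19 on the log2 scale.

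The genes whose profiles were most like those of the 4 were found by Pearson's r over the 9 arrays among 13352 other genes. The arrays fall into warm and cold groups, so a high r mostly reflects that step, and it is a description. The WS arrays entered r as well, so whether a listed gene lies higher or lower in WS is partly fixed by the choice. LEA4-5 was closest to AT1G11210 (r = 0.989), which went from a mean of 5.61 at 22 °C to 9.28 in cold Col-0 and 9.97 in cold WS. AT3G09440 (0.987), AT1G68500 (0.986), AT1G76590 (0.985) and AT5G43260 (0.985) followed, and all 5 had a higher mean in cold WS than in cold Col-0. TIL was closest to AT3G17130 (r = 0.991; means 5.69, 9.89 and 10.05) and to the LEA gene AT2G23120 (0.989), before AT1G06560, AT4G10620 and AT3G15650 (0.985, 0.984 and 0.984).

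DI21 was closest to AT2G23910 (r = 0.980; means 7.29, 9.50 and 8.96), which like DI21 had a lower mean in cold WS than in cold Col-0. AT1G75800, AT5G65120, AT1G32610 and AT2G19080 followed with r of 0.978, 0.977, 0.976 and 0.974, and had lower means in WS as well. Since r used the WS arrays, this shared direction is partly fixed by the choice too. HIS1-3 was closest to AT5G59670 (r = 0.985; means 5.74, 3.52 and 3.88) and then to AT2G02050 (0.975), AT2G28940 (0.975), AT1G33055 (0.974) and AT2G03540 (0.971). The lists depend on the measure: of the 5 genes listed by Spearman's rho, 0 were on the list by Pearson's r for each of the 4. With 9 arrays rho has many ties, and 10 genes shared the rho of the fifth place for LEA4-5, 6 for TIL, 4 for DI21 and 2 for HIS1-3, so that list is partly a pick among equals.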

How the data were processed

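The authors deposited 1 log2 signal per probe set and array, made by RMA with affy per the submitters' processing notes; versions and the genome build are not given in the sources used here. RMA sets the probe signals of all arrays to one distribution before they are combined into probe sets, which hides global shifts before that step. The deposited values still differed in their array medians, from 5.81 to 6.06. Of 22810 probe sets, 64 controls were left out. The probe annotation, updated through the RefSeq table of TAIR10.1, gave 1 gene for 13513 probe sets, several for 503 and none for 8730. The brightest probe set stood for a gene.

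A mean per group was estimated over all 9 arrays and all 22746 probe sets by lmFit and eBayes of limma 3.58.1, under R 4.3.3, with Benjamini-Hochberg adjustment. Residual degrees of freedom were 6, or 5 with set 4 as a group of its own. The pipeline was tested on simulated data.

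Members and lists were chosen with earlier results of these data known. Genes named are the members and their relatives, called list genes, the 3 largest uncalled per list, and the 5 most alike; AT1G54410 was added after its values were seen. Likeness over the 5 cold Col-0 arrays was left out as resting on too few arrays. The number of arrays limits the precision.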

Additional observations from a re-analysis of the deposited data

Results flagged for a closer look

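In 46 genes examined, 7 had 1 array of cold Col-0 whose gap to the other 4 exceeded Dixon's limit. Chance flags about 1 in 20. TIL was one of them, with 11.50 on array 1 of set 4 below 11.91 to 12.03 on the others, and CHL, the other lipocalin, had 9.97 on that same array below 10.15 to 10.18. AT3G17520 had 5.96 on array 3, where the others had 3.57 to 3.94, and AT4G30660 (10.17) and AT2G03850 (4.2) were highest there too. AT4G21020 (3.62) and the gene named LEA, AT2G21490 (3.72), were highest on array 1. Array 3 also had the highest cold Col-0 signal of LEA4-5, DI21 and HIS1-3 and the highest array median.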

How the results depend on the processing

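Differences of the 4 genes and counts of list genes were recomputed under 18 alternatives: other scalings, an intensity trend, dim probe sets left out, a replicate block, fits to the contrast's groups alone, set 4 left out or apart, no minimum difference for the list counts, and each array left out. No alternative brought a call for any of the 4 genes between the accessions (adjusted p for LEA4-5 from 0.317 to 0.874) or for set 4. Left-out arrays moved the cold difference of DI21 between 1.04 and 1.76 and of HIS1-3 between -1.93 and -0.29, with both extremes from the 22 °C arrays. Against 22 °C, cold WS ranged from 0.79 to 1.51 for DI21 and from -1.81 to -0.18 for HIS1-3. The small set 4 differences changed sign for DI21 (-0.39 to 0.058) and HIS1-3 (-0.050 to 0.20). List counts moved as follows: LEA genes lower in the cold went from 0 to 2 with no minimum difference, drought genes higher from 2 to 1 without array 1 at 22 °C (left-out range 1 to 2), and LEA genes higher in WS to 1 with set 4 left out or apart (AT3G17520 lost) and to 0 to 3 with an array left out. HIS1-3 was dropped with the dim probe sets. With a left-out array of a pair, the lone one is assumed to vary like the other groups.

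The replicate numbers share only a number: array 1 minus array 2 correlated at 0.089 between Col-0 at 22 °C and WS, at -0.14 and -0.19 between these and cold Col-0, at 0.11 and 0.24 between these and set 4, and at -0.32 between cold Col-0 and set 4. With the replicate block, LEA4-5 had a log2 difference of 1.16 between the accessions in the cold (limma adjusted p = 0.365), the cold differences were 4.14, 1.84, 1.33 and -1.18 for LEA4-5, TIL, DI21 and HIS1-3, and AT2G46140 was not called (0.0581) while AT3G02480 was (0.0381). AT3G02480 was also called under both other scalings (0.0298 and 0.0416), with the trend (0.0392), without dim probe sets (0.0382), with the contrast's groups alone or without either 22 °C array (0.0374), and without array 3 of cold Col-0 (0.0246).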

Other observations

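The genes next to the 4 on the chromosomes, 3 protein-coding genes on each side in the RefSeq order, had a probe set of their own in 12 of 24 cases. In cold Col-0 none of the 12 was called higher and 2 were called lower, beside 5.87% and 6.09% of all probe sets. SWEET17, a sugar transporter gene directly beside DI21, fell, with a log2 difference of -1.21 and an adjusted p of 0.000145 by limma, against the higher signal of DI21 itself. AT5G06790, the third gene from LEA4-5, fell by 1.99 log2 units (limma adjusted p = 0.000306). Both direct neighbours of TIL had log2 differences near 0, 0.034 for YKT61 and 0.11 for RR18. Between the accessions in the cold, the differences of the 12 ran from -0.64 to 0.35.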
